A study of Capra hircus with 4 samples.

Results

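The mural granulosa nuclei with aromatase and LHCGR were 5530 of the 48332 nuclei in 4 libraries of goat ovary. They were chosen by counts of unique molecular identifiers (UMIs, each marking 1 captured RNA molecule). A member had 1000 or more UMIs, 2 or more of CYP19A1, 1 or more each of LHCGR and NR5A2, and a UMI of at most 3 of 9 cell cycle genes (MKI67, TOP2A, CENPF, CDK1, SGO1, MYBL2, BUB1, ANLN and KIF11). Ovaries came from 2 Du'an goats, chosen for a litter size of 1, and 2 Nubian goats, chosen for a litter size of 3. They were collected at estrus and sequenced as single nuclei, with 1 library per goat. All goats were about 3 years old and had carried a vaginal progesterone device (300 mg) for 17 days to synchronize estrus. No other hormone treatment is named in the study's text. The groups differ in breed and litter size together, and each breed is 2 goats. Du'an replicates 1 and 2 held 1 and 1560 members, and Nubian replicates 1 and 2 held 3678 and 291. The libraries held 9364, 10893, 16988 and 11087 nuclei with 40573246, 60566681, 71613892 and 52783453 UMIs, in the same order.

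Mural granulosa cells line the wall of the antral follicle. Aromatase, the product of CYP19A1, turns androgens made by the theca into estradiol, and the receptor LHCGR lets the wall of a large follicle answer luteinizing hormone (LH). NR5A2 is a nuclear receptor that drives steroidogenic genes in granulosa cells. The same cells secrete inhibins and activins, which act on the pituitary and within the follicle, and the LH surge later turns them toward ovulation and luteinization.

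Levels below are CPM, the UMIs of a gene per 1000000 UMIs in the summed members of 1 goat, and triplets of values are in the order Du'an replicate 2, Nubian replicate 1 and Nubian replicate 2. The single member of Du'an replicate 1 was not summed. The members' median depth was 7403, 5726.5 and 5467 UMIs, and they carried 22.28%, 34.65% and 3.695% of all UMIs of their libraries. Median UMIs per member were 10, 12 and 15 for CYP19A1, 15, 6 and 6 for LHCGR, and 20, 11 and 21 for NR5A2. These counts chose the members and are a description. CYP19A1 stood at 1799, 3000 and 3884 CPM and LHCGR at 2649, 1578 and 1940 CPM, so the goat with the lowest aromatase had the highest LHCGR. SERPINE2, a serine protease inhibitor, stood at 4482, 6070 and 2113 CPM, and ROBO1, a receptor for SLIT ligands, at 679, 5780 and 1487 CPM. Both had been picked as markers of these nuclei with their values known, so their levels are also given without a test, and where they are counted among called genes they support nothing.

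The label was checked against markers of other cells. Of 9 granulosa markers outside the rule, 3 or more were seen in 94.36%, 94.45% and 95.19% of members. Oocyte markers summed to 2.964, 2.741 and 1.538 CPM, with BMP15 and FIGLA at 0 in all 3 sums. CYP17A1, the theca enzyme that makes androgens, stood at 1.112, 3.103 and 0 CPM, and the 8 theca markers summed to 119, 177 and 185 CPM, led by CYP11A1, which granulosa cells also use. Smooth muscle markers were seen at 325, 345 and 111 CPM (most abundant MYH11), and 3 or more of them in 4.231%, 5.519% and 2.062% of members. Blood endothelial markers summed to 80.63, 91.93 and 50.76 CPM (most abundant TEK) and 3 or more were seen in 2.692%, 2.284% and 0.6873% of members. T or natural killer markers summed to 131, 65.25 and 29.23 CPM (most abundant PTPRC). Stromal markers summed to 303, 158 and 249.7 CPM (most abundant LAMA2), lymphatic endothelial markers to 207, 118.6 and 149.2 CPM (most abundant MMRN1), fibroblast markers to 48.47, 175.8 and 27.17 CPM (most abundant COL3A1), and pericyte and epithelial markers to at most 16 CPM. Of the stromal and lymphatic lists, 3 or more markers were seen in 1.41%, 1.985% and 1.375% and in 0.9615%, 1.142% and 0.6873% of members. Doublets were not removed.

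UMIs of the rule genes were also found in nuclei of other types. Whether they came from free RNA or from doublets was not tested. CYP19A1 had a UMI in 23.09%, 42.16% and 7.692% of T cell nuclei, which should lack it, at a median depth of 2407, 2650 and 3043 UMIs. Its level there was 111, 274 and 19 CPM. The rule sets the members' CYP19A1 level in part, so nothing is read from the gap between them and the T cell nuclei. Of these T cell nuclei, 7 of 797, 4 of 185 and 0 of 195 passed the whole rule. 2 or more CYP19A1 UMIs, the number the rule asks for, were found in 5.019%, 13.51% and 0% of them. LHCGR had a UMI in 28.86%, 24.32% and 3.59% of the T cell nuclei, and NR5A2 in 32.37%, 30.27% and 16.41%. Of endothelial nuclei, 4 of 398, 13 of 403 and 0 of 156 passed the whole rule.

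Just inside the threshold, nuclei with exactly 2 CYP19A1 UMIs numbered 189, 376 and 21, and just outside it, those with 1 UMI that met the rest of the rule numbered 438, 585 and 61. INHBA stood at 986, 1144 and 1498 CPM inside and at 366, 806 and 329 CPM outside. Nuclei with 3 cell cycle genes numbered 12, 66 and 8 (inside) and those with 4 numbered 11, 60 and 4 (outside). None of the 9 genes had a UMI in 76.47%, 71.89% and 77.32% of members, a description of genes that the rule used.

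The share of nuclei that were members differed more between goats than between breeds. It was 0.01068% (exact 95% binomial interval 0.0002704 to 0.05949) in Du'an replicate 1, 14.32% (13.67 to 14.99) in Du'an replicate 2, 21.65% (21.03 to 22.28) in Nubian replicate 1 and 2.625% (2.335 to 2.94) in Nubian replicate 2. These intervals cover counting error only. The breeds overlapped, with each breed holding a goat above 14% and a goat below 3%. Nubian goats averaged 4.972 percentage points more (two-sided exact permutation p = 0.6667, where 2 goats against 2 allow no p under 0.3333), and the sign turned without Du'an replicate 1 (-2.183) or Nubian replicate 1 (-4.541). With each nucleus of 2000 or more UMIs thinned to 2000 UMIs, the shares were 0%, 13.96%, 24.38% and 3.311%. How many large follicles each ovary held cannot be told apart from a change in the cells.

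**Figure D1:**
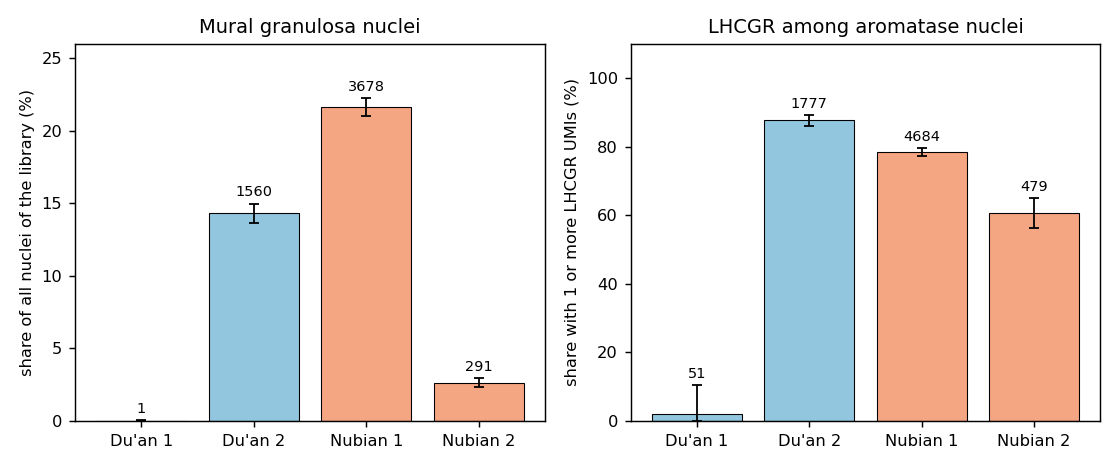
Left, mural granulosa nuclei as percent of all nuclei of each library, with the number of members above each bar. Right, nuclei with 2 or more CYP19A1 UMIs that also had LHCGR, in percent, with the number of CYP19A1 nuclei above each bar. Bars are single goats (blue Du'an, orange Nubian) and error bars exact 95% binomial intervals; Du'an replicate 1 stands near 0 in both panels.

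Du'an replicate 1 had aromatase nuclei that lacked LHCGR. When the LHCGR condition was dropped and the rest of the rule kept, Du'an replicate 1 held 51 aromatase nuclei, of which 1 had LHCGR (1.961%, exact 95% interval 0.04963 to 10.45). The shares with LHCGR were 87.79%, 78.52% and 60.75% of 1777, 4684 and 479 nuclei in the other goats. As background, LHCGR had a UMI in 28.86%, 24.32% and 3.59% of the T cell nuclei of those goats. In Du'an replicate 1 it had one in 0% of 59 T cell nuclei. The median depth of 9560 UMIs in Du'an replicate 1 was above the 7190, 5061 and 5310 UMIs of the others. The aromatase nuclei of Du'an replicate 1 held 1 LHCGR UMI in all (1.734 CPM, against 2353, 1331 and 1215 CPM in the other goats). Their aromatase was also lower, with a median of 3 CYP19A1 UMIs against 8, 9 and 9. FSHR, the receptor for follicle-stimulating hormone, stood at 4017 CPM there, against 1743, 1559 and 2347 CPM. INHBA, the subunit of activin A and inhibin A, stood at 224 CPM, against 1693, 1852 and 2307 CPM. With 1 such goat these values are a description.

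To ask what else marks the members, they were compared with aromatase-free granulosa nuclei, which had FSHR and NR5A2 but no UMI of CYP19A1 or LHCGR (1822, 983 and 2103 nuclei in the 3 goats). Sums per goat entered edgeR's quasi-likelihood test with the goat as a block, and genes of either rule were left out. Of 14518 genes, 1290 were higher (8.89% of those tested) and 1999 lower (13.8%) in the members at an adjusted p under 0.05. Leaving out each goat gave 433 to 1471 higher and 641 to 2081 lower, and leaving out the block gave 682 and 742. Scaling by library totals gave 728 higher and 3225 lower and moved the median log2 fold change of all genes from -0.05 to -0.29, so folds are relative to that median; no called list gene, and no other gene given with a value here, changed its direction with this scaling. The members were deeper than the aromatase-free nuclei (median 5181, 2830 and 4347 UMIs) and carried less mitochondrial RNA (median 0.2028%, 0.8795% and 0.3162% of UMIs, against 0.7787%, 1.716% and 0.6438%). The part of depth in the calls was followed by keeping nuclei of 3000 or more UMIs, which called 1165 genes higher and 1720 lower.

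The activin and inhibin subunits rose strongly. INHBA stood at 1868, 2001 and 2856 CPM in the members and at 85.88, 255 and 99.06 CPM in the aromatase-free nuclei. The log2 fold change was 4.35 (SE 0.37, adjusted p = 0.00157), higher in 3 of 3 goats. INHBB, the subunit of activin B, stood at 186, 383 and 387 CPM against 39.53, 74.07 and 107 CPM (log2 2.40, SE 0.16, adjusted p = 0.00085). INHA, the alpha subunit that makes an inhibin of either, stood at 155, 280 and 186 CPM against 42.98, 118 and 17.74 CPM (log2 2.37, SE 0.38, adjusted p = 0.00792). Every member sum of these subunits lay above every aromatase-free sum of the same gene. In T cell nuclei INHBA stood at 157.6, 223.2 and 25.36 CPM, so the aromatase-free level was under that background in Du'an replicate 2 and above it in the Nubian goats. Of 19 of the genes described here as higher in the members, the level in the members was above that in T cell nuclei in 3 of 3 goats for 18, the exception being GADD45B in Nubian replicate 2. The aromatase-free level was above that in T cell nuclei in all 3 goats for 7 of the 19 (among them INHBB, FDXR, GATA6 and ROBO2), at or under it in some goats for 11, and at or under it in all 3 for CYP11A1. The T cell gate, unlike the aromatase-free gate, kept nuclei with UMIs of CYP19A1 or LHCGR, so the background of these gates is not alike. FST, follistatin, which binds activin, rose as well (log2 1.77, SE 0.18, adjusted p = 0.00217). AMH, made by granulosa cells of small follicles, fell: it stood at 23.64, 10.96 and 3.589 CPM in the members against 90.39, 40.84 and 33.13 CPM (log2 -1.87, SE 0.23, adjusted p = 0.00359). In the whole list of inhibin, activin, AMH and BMP genes, 5 of 31 tested were higher (INHBA, INHBB, INHA, FST, BMPR2) and 7 lower (AMH, BMP4, TGFB2, SMAD6, BMP6, TGFBR2, SMAD3), with a median log2 of -0.14.

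In the steroid synthesis list, 5 of 14 tested genes were higher (CYP11A1, FDXR, FDX1, CYB5A, HSD17B12) and 2 lower (TSPO, HSD3B7), with a median log2 of 0.43. CYP11A1, the side chain cleavage enzyme that starts steroid synthesis, stood at 52.99, 109 and 151 CPM in the members and at 8.402, 13.45 and 12.88 CPM in the aromatase-free nuclei (log2 3.33, SE 0.21, adjusted p = 0.00085). In the T cell nuclei of the same goats, which should lack it, CYP11A1 was at 16.36, 25.51 and 35.5 CPM, above the aromatase-free level in 3 of 3. As said above, the T cell gate kept nuclei with CYP19A1 or LHCGR UMIs and the aromatase-free gate did not. The aromatase-free level therefore cannot be told apart from background, and the fold may be one against background. FDXR, the reductase that feeds it electrons, stood at 65.59, 55.38 and 68.70 CPM against 11.32, 13.95 and 14.06 CPM (log2 2.53, SE 0.15, adjusted p = 0.00085). STAR, which delivers cholesterol into mitochondria, was at 4.669, 2.862 and 3.076 CPM in the members and 4.511, 1.268 and 13.72 CPM in the others, and did not pass the test (log2 -0.06, adjusted p = 0.95). It was called higher in the members with the study's quality filter (1.71, adjusted p = 0.0224) and without nuclei that carried markers of other cell types (2.38, adjusted p = 0.048), a setting described further on. That last setting also ended the calls of TSPO (-0.49, adjusted p = 0.404), HSD3B7 (-1.80, adjusted p = 0.0996), CYB5A (0.50, adjusted p = 0.105) and HSD17B12 (0.48, adjusted p = 0.0587), so 3 of the 5 higher calls and 0 of the 2 lower calls of the list were kept there. HSD17B1, which makes estradiol from estrone, did not pass it either (21.94, 22.77 and 66.65 CPM against 32.55, 28.67 and 30.79 CPM). A gene annotated as 3BHSD, the enzyme that makes progesterone, was named after its values were seen. It stood at 41.87, 15.48 and 50.25 CPM against 3.007, 12.43 and 7.614 CPM (log2 2.55, SE 0.59, adjusted p = 0.0257).

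In the cholesterol list, 7 of 31 were higher (LRP8, VLDLR, SOAT1, DHCR7, HMGCS1, FDFT1, SREBF2) and 3 lower (ABCG1, NPC2, ABCA1), with a median log2 of 0.36. LRP8, a lipoprotein receptor, stood at 524, 735 and 1283 CPM in the members against 44.58, 83.46 and 49.61 CPM (log2 4.04, SE 0.31, adjusted p = 0.00116). ABCA1, which exports cholesterol, stood at 13.27, 14.35 and 24.61 CPM against 57.22, 66.21 and 54.88 CPM (log2 -1.62, SE 0.22, adjusted p = 0.00474). In 3 of 3 goats the uptake receptor was therefore higher and the exporter lower.

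Of the ovulatory list, 6 of 30 were higher (EREG, TNFAIP6, VCAN, EGFR, NRIP1, PGR) and 14 lower (among them CEBPA, RUNX2, ERBB4, SPP1 and PTGER4), with a median log2 of -0.81. SPP1 and PTGER4 were not called without nuclei that carried markers of other cell types, a setting described further on, and 8 of the 13 lower calls tested there were kept (CEBPA was not tested). EREG, an EGF-like ligand induced by LH, stood at 17.19, 15.48 and 35.89 CPM against 0.5307, 0.5074 and 1.171 CPM (log2 5.17, SE 0.24, adjusted p = 0.000723). TNFAIP6, a hyaluronan-binding protein of the expanding cumulus, stood at 194, 230 and 240 CPM against 14.15, 31.96 and 58.57 CPM (log2 3.13, SE 0.32, adjusted p = 0.00208). PTGS2, AREG and HAS2, also of the list, were named after their low values were seen. PTGS2, the prostaglandin synthase of ovulation, was at 3.113, 0.7255 and 2.564 CPM, AREG was at 0.4447, 0 and 0 CPM, and HAS2, the hyaluronan synthase, at 0, 0.0403 and 0 CPM. PGR, the progesterone receptor, rose by a small step (119, 111 and 106 CPM against 69.96, 73.06 and 77.39 CPM, log2 0.86, SE 0.12, adjusted p = 0.00588). ERBB4, a receptor of the EGF family, fell (adjusted p = 0.00219) while EGFR rose (log2 1.08, SE 0.19, adjusted p = 0.0108).

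Among granulosa transcription factors and nuclear receptors, 9 of 28 were higher (GATA6, HMGA2, ESR2, FOXO1, NR5A1, GATA4, PBX3, BNC2, NFKB1) and 5 lower (RUNX2, EMX2, WT1, SOX4, FOXO3), with a median log2 of -0.04. GATA6 stood at 408, 935 and 1225 CPM against 179, 338 and 256 CPM (log2 1.89, SE 0.22, adjusted p = 0.00313). NR5A1, the steroidogenic factor SF-1, stood at 57.51, 95.04 and 107 CPM against 33.08, 65.20 and 40.91 CPM (log2 1.15, SE 0.18, adjusted p = 0.00671). WT1, a factor of early follicles, stood at 26.09, 17.85 and 15.38 CPM against 91.89, 94.37 and 47.86 CPM (log2 -1.74, SE 0.17, adjusted p = 0.00194). RUNX2 stood at 224, 213 and 115 CPM against 637, 1396 and 1508 CPM (log2 -2.38, SE 0.39, adjusted p = 0.00863). The GATA and SF-1 genes were thus higher and WT1 and RUNX2 lower in 3 of 3 goats.

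**Figure D2:**
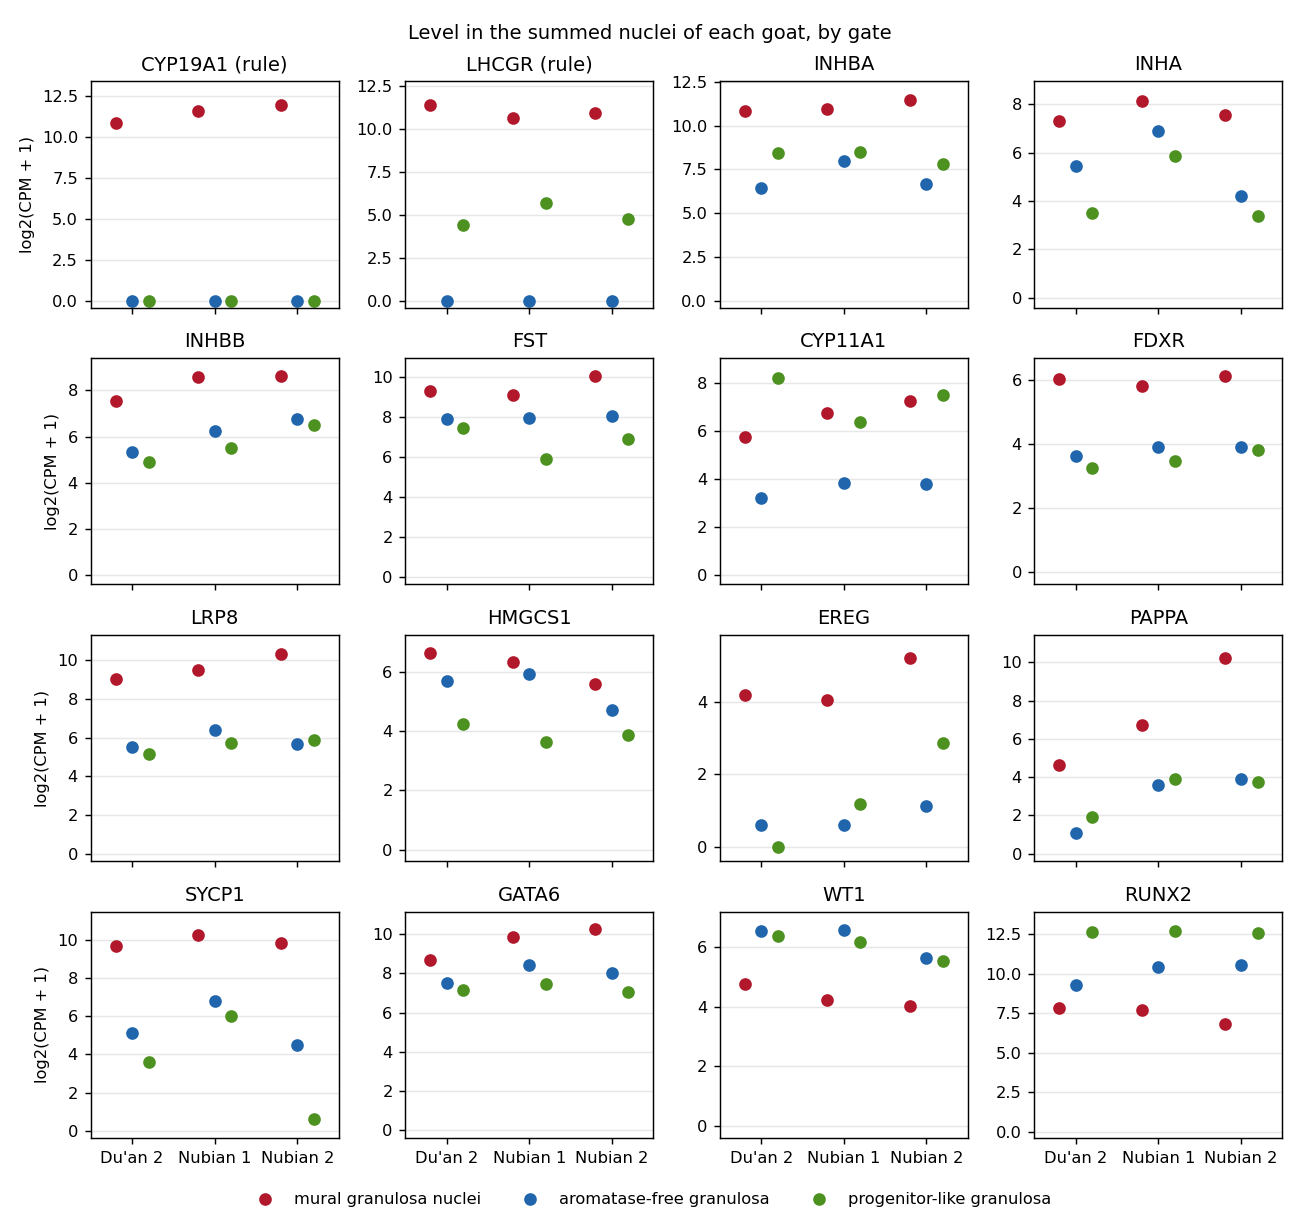
Each panel gives 1 gene, and each point the level of 1 goat's summed nuclei as log2(CPM + 1), in mural granulosa (red), aromatase-free granulosa (blue) and progenitor-like granulosa (green). CYP19A1 and LHCGR are rule genes and set the gates. INHBA, INHBB, LRP8 and SYCP1 are highest in the mural sum of every goat, WT1 and RUNX2 are lowest there, and CYP11A1 is high in the progenitor-like sums as well.

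Of the cAMP list, which holds the machinery downstream of the gonadotropin receptors, 2 of 32 were higher (PDE8A, PRKAR2B) and 7 lower (ADCY7, RGS2, PDE3B, PDE4B, PDE3A, ARRB1, PDE7A), with a median log2 of -0.09. PRKAR2B, a regulatory subunit of protein kinase A, stood at 4655, 4816 and 4185 CPM against 1745, 2423 and 1385 CPM (log2 1.59, SE 0.16, adjusted p = 0.00208). In the IGF list, 3 of 18 were higher (PAPPA, PIK3R1, IRS1) and 5 lower (IGF2, IRS2, IGFBP2, IGF1, IGF1R; median log2 -0.48). PAPPA, a protease that frees IGF from its binding proteins, stood at 24.23, 103 and 1202 CPM against 1.150, 11.16 and 13.80 CPM (log2 5.11, SE 0.64, adjusted p = 0.00371). Its level differed widely between the goats but was higher than in the same goat's aromatase-free nuclei in 3 of 3.

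Genes of cell guidance and contact divided. In the list of SLIT, ROBO and other guidance genes, 9 of 34 were higher (EPHA3, EPHA4, ROBO1, which was a chosen marker, ROBO2, SEMA6D, UNC5C, SEMA6A, EPHA5, SEMA3C) and 13 lower (among them PLXNA4, UNC5B, SEMA5A, NTN1 and SLIT2; median log2 -0.59). ROBO2 stood at 4424, 7523 and 6190 CPM against 906, 1831 and 1570 CPM (log2 2.35, SE 0.15, adjusted p = 0.00085), while its ligand gene SLIT2 was at 8.078, 12.49 and 17.95 CPM against 23.00, 29.68 and 25.52 CPM (log2 -0.88, SE 0.22, adjusted p = 0.0314). Receptor and ligand thus lay on opposite sides, although SLIT2, with a larger fold (-1.19, adjusted p = 0.127), was not called without nuclei that carried markers of other cell types. In the list of gap junctions, cadherins and follicle matrix, 4 of 29 were higher (CDH11, VCAN, LAMA1, GJA1) and 7 lower (GJA4, CDH1, CTNNA2, CDH2, HSPG2, LAMC1, GJC1; median log2 -0.32). CDH11 stood at 1288, 1016 and 469 CPM against 66.16, 167 and 80.40 CPM (log2 3.38, SE 0.36, adjusted p = 0.00228), whereas CDH2, N-cadherin, stood at 945, 625 and 1183 CPM against 2630, 1945 and 2806 CPM (log2 -1.20, SE 0.14, adjusted p = 0.00305). Of 26 proteases and inhibitors, 1 was higher (SERPINE2, a chosen marker) and 9 lower, among them PLAUR and MMP24 (median log2 -0.55).

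Of 29 apoptosis and atresia genes, 1 was higher (GADD45B) and 7 lower (GADD45A, CDKN1A, FAS, BCL2, BCL2L11, MCL1, TP53INP1; median log2 -0.18). Those that fell include inducers (FAS, the death receptor, and BCL2L11) as well as protectors (BCL2 and MCL1). GADD45A stood at 7.189, 5.643 and 9.229 CPM against 17.60, 28.16 and 77.22 CPM (log2 -1.87, SE 0.30, adjusted p = 0.00828), and its paralog GADD45B at 70.92, 30.23 and 33.84 CPM against 11.32, 8.625 and 6.359 CPM (log2 2.57, SE 0.19, adjusted p = 0.00114). Of 23 genes of glycolysis, hypoxia and VEGF, 6 were higher (PFKM, VEGFC, HIF1A, GPI, HK1, ARNT) and 4 lower (ADM, SLC2A1, EPAS1, ARNT2; median log2 -0.27). Of 23 DNA replication genes none was higher and CCND3, a G1 cyclin, was lower (median log2 0.10). All gates compared here allowed a UMI of at most 3 of the 9 cell cycle genes, which limits what this list can show in each comparison. Of 13 mitochondrially encoded genes none was higher and 7 were lower (ND2, ND3, ND4, ND5, COX1, COX3, CYTB; median log2 -0.64), which goes with the lower mitochondrial share of the members.

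The 10 leading genes among those higher in 3 of 3 goats were LIX1, SLC27A2, EREG, PAPPA, SYCP1, MYO7A, PLD5, INHBA, GLDN and LRP8. SLC27A2, a fatty acid transporter and very long chain acyl-CoA synthetase, stood at 61.36, 55.62 and 27.69 CPM against 1.150, 3.805 and 0.502 CPM (log2 5.31, SE 0.36, adjusted p = 0.00085). SYCP1, known as a component of the synaptonemal complex of meiosis, stood at 826, 1229 and 909 CPM against 33.70, 111 and 21.92 CPM (log2 4.73, SE 0.36, adjusted p = 0.00118). GLDN, gliomedin, an adhesion protein known from myelinated nerve, stood at 213, 281 and 473 CPM against 17.33, 28.41 and 19.24 CPM (log2 4.10, SE 0.27, adjusted p = 0.00085). LIX1 rested on 1 goat, with 1.038, 3.063 and 169 CPM in the members. Both SYCP1 and GLDN are thus genes named for other tissues that were abundant here in all 3 goats.

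The 10 leading genes among those lower were S100A9, TYROBP, CD74, IFI30, FABP5, C1QC, C1QB, FCER1G, SCN10A and AIF1, and most of them are known from macrophages and other myeloid cells. CD74 stood at 20.16, 16.28 and 11.28 CPM in the members against 219, 148 and 158 CPM (log2 -3.18, SE 0.17, adjusted p = 0.00085). The 6 macrophage markers in the files summed to 38.24, 19.83 and 19.48 CPM in the members and to 247, 122 and 130 CPM in the aromatase-free nuclei, where 3 or more were seen in 1.811%, 0.9156% and 0.7133% of nuclei. When nuclei with 2 or more markers of macrophages, T or natural killer cells, blood endothelium or smooth muscle were left out of both gates, a setting chosen after seeing these genes, 941 genes were higher and 1350 lower. C1QC (0.17), TYROBP (0.23), CD74 (-0.45) and S100A9 (-0.50) were then not called, while SCN10A, a sodium channel, stayed lower (-2.99) and INHBA (4.27), EREG (4.88), SYCP1 (4.74) and CYP11A1 (3.26) stayed higher. Of the lists, 3 of the 7 lower protease genes tested there (PLAUR and MMP24 were not tested), 4 of 7 lower cAMP genes, 6 of 9 higher transcription factors (BNC2 at 0.70, ESR2 at 1.19 and PBX3 at 0.71 were lost), 5 of 7 higher cholesterol genes (DHCR7 at 0.96 and SREBF2 at 0.34 were lost) and 10 of 13 lower guidance genes kept their call. So did 4 of 5 higher and 6 of 7 lower genes of the inhibin list and 2 of 3 lower cholesterol genes. Kept as well were 6 of 7 lower apoptosis genes, 5 of 6 higher glycolysis and hypoxia genes and 4 of 7 lower mitochondrially encoded genes. ND2 (-0.71, adjusted p = 0.0502, from -0.69 before), COX3 (-0.67, adjusted p = 0.0675) and CYTB (-0.68, adjusted p = 0.0678) were lost. Of the lower IGF genes 3 of 5 kept their call, without IGF1 (-1.03, adjusted p = 0.211, from -1.02 before) and IGF2 (-1.37, adjusted p = 0.0521, from -1.50 before). Of the lower contact and matrix genes 5 of 7 kept it, without GJA4 (-1.06, adjusted p = 0.24, from -1.86 before) and CDH1 (-1.62, adjusted p = 0.0633, from -1.81 before).

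The genes that the study named for mural cells were all higher where they could be tested (INHBA, SERPINE2, INHBB, INHA and NR5A1, 5 of 5), but they had been chosen on these samples. Of 5 named for cumulus cells, IGFBP2 was lower (74.78, 46.95 and 53.84 CPM against 218, 90.56 and 176 CPM, log2 -1.14, SE 0.19, adjusted p = 0.00866). CHST8 was called higher (log2 0.78, SE 0.22, adjusted p = 0.0471), although its CPM was not higher in Du'an replicate 2. It was not called without nuclei that carried markers of other cell types (0.60, adjusted p = 0.147). RERG and EDA did not pass the test. TMEM200A (log2 3.82, SE 0.24), TMEM178B (3.18, SE 0.46), IGSF11 (2.24, SE 0.17) and PLPP3 (2.41, SE 0.23) were also higher in 3 of 3 goats. The study named these on the same samples too, as granulosa hub genes or as genes higher in Nubian goats, and not as mural markers.

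Next, the members were set against progenitor-like granulosa nuclei, which had UMIs of ENPP1, ANKH, IGFBP5 and FSHR and none of CYP19A1. These gates were small and deep, with 60, 93 and 120 nuclei at a median of 13613, 6603 and 11918.5 UMIs. Of 11339 genes tested, 940 were higher in the members (8.29%) and 1543 lower (13.6%), against 664 and 1856 with library totals. Leaving out Nubian replicate 1 gave 1729 and 2637, and leaving out Du'an replicate 2 or Nubian replicate 2 gave 207 and 363 or 283 and 399.

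The cholesterol list had the most higher genes, 13 of 30 (among them LRP8, SOAT1, HMGCS1, FDFT1, SQLE, DHCR7, MSMO1, LSS, SREBF2 and SC5D), and 3 lower (NPC2, ABCG1, ABCA1), at a median log2 of 1.18 beside -0.04 over all genes. HMGCS1, the synthase at the start of the mevalonate pathway, stood at 97.90, 79.48 and 47.68 CPM in the members against 18.00, 11.27 and 13.63 CPM in the progenitor-like nuclei (log2 2.55, SE 0.32, adjusted p = 0.0065). SQLE, squalene epoxidase, stood at 92.71, 85.20 and 52.30 CPM against 18.94, 26.29 and 8.914 CPM (log2 2.39, SE 0.31, adjusted p = 0.00727). SQLE did not pass the test against the aromatase-free nuclei (83.76, 91.83 and 41.83 CPM there, log2 0.36, SE 0.13, adjusted p = 0.0875).

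INHA (log2 3.65, SE 0.48), INHBA (3.08, SE 0.37), FST and INHBB (2.85, SE 0.29) were again higher, and in their list 8 of 28 were higher and 7 lower (TGFB2, SMAD7, BMP2, BMP4, FSTL3, TGFBR2, SMAD3; median log2 -0.21). CYP11A1 was not called here: it stood at 52.99, 109 and 151 CPM in the members and at 297, 82.62 and 182 CPM in the progenitor-like nuclei (log2 -0.54, SE 0.56, adjusted p = 0.493). FDXR, HSD17B1, CYB5A and HSD17B7 were the 4 of 12 steroid synthesis genes that rose, and TSPO fell (median log2 0.69). CYB5A (1.36, adjusted p = 0.0803, from 1.83) and HSD17B7 (1.34, adjusted p = 0.0882, from 1.44) lost their call without nuclei that carried markers of other cell types. HSD17B1 stood at 21.94, 22.77 and 66.65 CPM against 9.472, 2.504 and 8.914 CPM (log2 2.57, SE 0.47, adjusted p = 0.018). TNFAIP6 stood at 194, 230 and 240 CPM against 0.9472, 8.763 and 1.049 CPM (log2 6.55, SE 0.66, adjusted p = 0.00411).

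The genes that fell most were MMP9, ANKRD1, GABRB1, XIRP1, CBLN2, PAMR1, CDH1, COL8A1, MUSK and LVRN. MMP9, a matrix metalloproteinase, was at 0.2223, 0.1612 and 0 CPM in the members and at 78.62, 35.05 and 28.84 CPM in the progenitor-like nuclei. CDH1, E-cadherin, was at 0.8893, 0.4837 and 0.5127 CPM against 35.05, 45.07 and 23.60 CPM (log2 -5.62, SE 0.49, adjusted p = 0.00315). Of 21 proteases and inhibitors, 10 fell (among them TIMP1, ADAM12, ADAMTS5, ADAMTS6, PLAUR, MMP2 and PLAT) and 2 rose (SERPINE2, a chosen marker, and MMP16; median log2 -1.74), and of 27 apoptosis genes 10 fell and GADD45B rose (median log2 -0.71). Of 27 transcription factors, 7 rose (among them ESR2, GATA6, NR5A1, GATA4, PBX3 and ESR1) and 6 fell (SOX9, RUNX2, SOX4, EMX2, RUNX1, WT1; median log2 0.23), of which EMX2 (-1.91, adjusted p = 0.0942, from -2.19) and WT1 (-1.21, adjusted p = 0.18, from -1.50) lost their call without nuclei that carried markers of other cell types. RUNX2 stood at 224, 213 and 115 CPM against 6442, 6789 and 6182 CPM (log2 -4.97, SE 0.36, adjusted p = 0.00249), with no overlap between the gates.

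The remaining lists against the progenitor-like nuclei were mixed. Of 30 cAMP genes 7 rose (PRKAR2B, RAPGEF4, PDE8A, PDE7B, PDE8B, ADCY9, PRKACB) and 3 fell (RGS2, PDE4B, PDE3A; median log2 0.27). Of 26 ovulatory genes 4 rose (TNFAIP6, EREG, VCAN, PGR) and 10 fell (median log2 -1.25), of 15 IGF genes 3 rose and 5 fell (median log2 -0.43), and of 32 guidance genes 9 rose and 8 fell (median log2 -0.46). Of 27 contact and matrix genes 6 rose and 7 fell (median log2 -0.17), of 22 glycolysis and hypoxia genes 4 rose and 6 fell (median log2 -0.44), and of 13 replication genes CCND2 and POLA1 rose and CCND3 fell (median log2 0.72). None of the 13 mitochondrially encoded genes was called (median log2 -0.88). The 5 mural genes of the study all rose again, and of its 5 cumulus genes 3 were higher, among them CHST8 (log2 3.54, SE 0.50) and EDA (log2 1.27, SE 0.28), which lost its call without nuclei that carried markers of other cell types (0.88, adjusted p = 0.299). Of the lists, that setting kept 4 of 7 higher and 1 of 3 lower cAMP genes (ADCY9, PDE8B, PRKACB, PDE3A and PDE4B were lost), 6 of 8 lower ovulatory genes tested (PTGER4 and SPP1 were not), 1 of 3 higher and 2 of 4 lower IGF genes tested (IGF2 was not), 8 of 9 higher guidance genes and 6 of 7 lower ones tested (EPHB1 was not), and 5 of 6 higher and 5 of 7 lower contact and matrix genes. It also kept 11 of 13 higher cholesterol genes and both lower ones tested (ABCG1 was not), 5 of 6 lower genes of the inhibin list tested (BMP4 was not), 1 of 2 higher and all 6 of the lower proteases tested (ADAMTS12, MMP2, PLAT and PLAUR were not tested there), 6 of 9 lower apoptosis genes tested (BBC3 was not), 3 of 4 higher and 5 of 6 lower glycolysis and hypoxia genes, and CCND2 but not POLA1 (0.72, adjusted p = 0.0786). The lower IGF genes that lost their call there were IGFBP7 (-1.86, adjusted p = 0.0725, from -1.71) and IGFBP6 (-3.19, adjusted p = 0.0563, from -4.46).

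**Figure D3:**
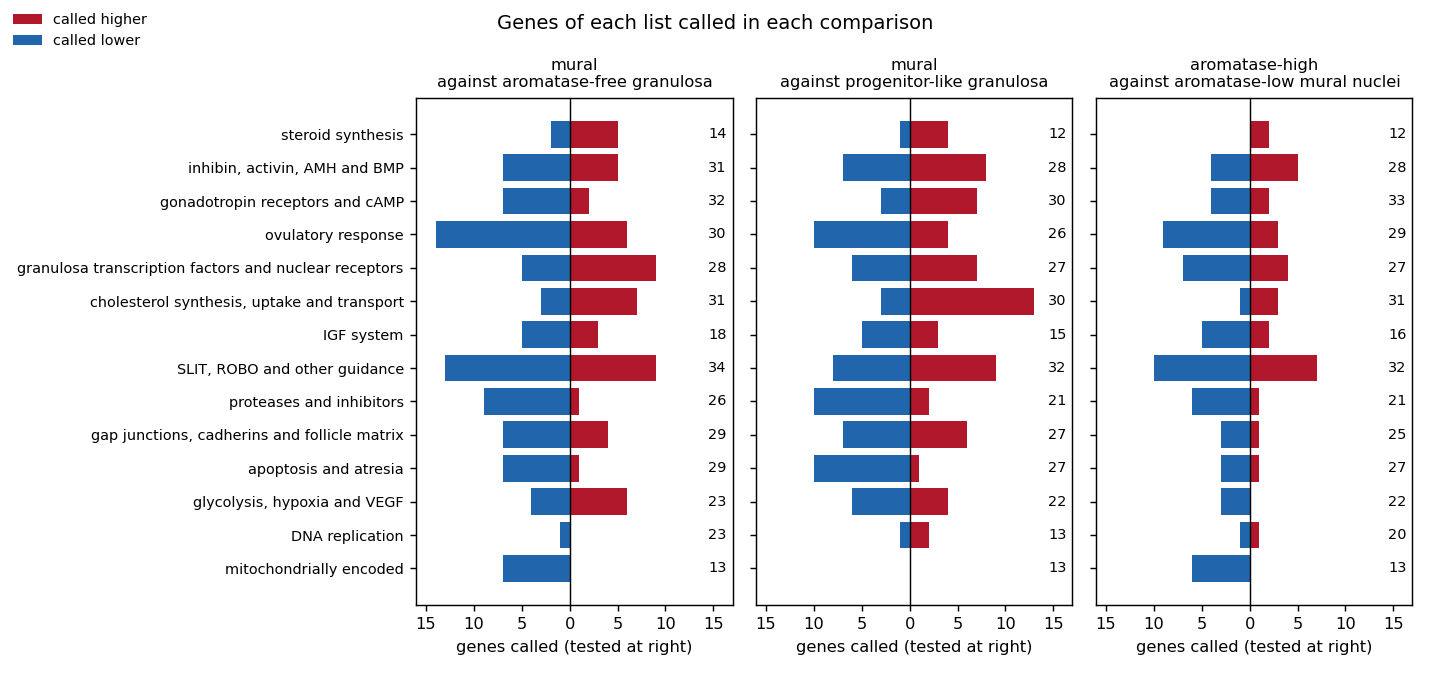
Number of genes of each list called higher (red, right of 0) or lower (blue, left of 0) at an adjusted p under 0.05 in the 3 comparisons, with the number of list genes tested at the right edge of each panel. The cholesterol list has 13 higher against progenitor-like nuclei, and the ovulatory and protease lists have more lower than higher in all 3 panels.

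The members also varied among themselves. Members with 3000 or more UMIs were split within each library at the median of CYP19A1 per 10000 UMIs into aromatase-high (669, 1417 and 108) and aromatase-low nuclei (669, 1418 and 109), whose median depths were 7895, 7362 and 7518.5 against 8687, 6746.5 and 7653 UMIs. CYP19A1 set the split, at 3006, 4796 and 6096 CPM against 732, 1220 and 1678 CPM. LHCGR, a rule gene given without a test, was higher in the aromatase-high nuclei of each goat, at 3384, 1793 and 2454 CPM against 2016, 1372 and 1394 CPM. FSHR, which the rule did not use, did not move one way, at 1338, 1400 and 2079 CPM against 1903, 1512 and 1793 CPM (log2 0.00, SE 0.13, adjusted p = 0.995).

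Of 12701 genes tested, 280 were higher with aromatase (2.2%) and 768 lower (6.05%), against 118 and 1049 with library totals. Without the goat as a block none was called in either direction (994 genes at an unadjusted p under 0.05), and without nuclei that had 2 or more markers of other cell types 66 were higher and 207 lower. The 10 leading genes that rose were PI15, NEBL, ESR2, LRP8, SLC24A2, PAPPA, SLC27A2, the chosen marker SERPINE2, CDO1 and ANKRD44. ESR2, the estrogen receptor of granulosa cells, stood at 89.24, 226 and 403 CPM in the aromatase-high nuclei against 62.44, 114 and 140 CPM (log2 1.11, SE 0.16, adjusted p = 0.00378). LRP8 stood at 716, 898 and 1576 CPM against 349, 538 and 857 CPM (log2 1.03, SE 0.09, adjusted p = 0.000776). Both were higher in 3 of 3 goats, and LRP8, PAPPA and SLC27A2 are also among the leading genes against the aromatase-free nuclei. The 10 leading rises lay between log2 0.92 and 1.14.

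The leading genes that fell were ENPP1, PDK4, KIRREL3, ASPN, ANGPT2, SULF1, KCNK12, IL1R1, ADAMTS1 and CD44. ENPP1, an ectoenzyme that makes pyrophosphate and a gene of the progenitor-like gate, stood at 8.593, 13.53 and 8.914 CPM in the aromatase-high nuclei against 58.28, 78.38 and 15.42 CPM (log2 -2.38, SE 0.21, adjusted p = 0.000776). ANGPT2, an angiopoietin, stood at 31.73, 9.077 and 6.686 CPM against 163, 35.56 and 38.54 CPM (log2 -2.08, SE 0.14, adjusted p = 0.000511). PDK4, a kinase that slows pyruvate oxidation, stood at 8.098, 2.740 and 4.457 CPM against 35.89, 16.38 and 38.54 CPM (log2 -2.28, SE 0.20, adjusted p = 0.000776). CD44 rested mainly on Nubian replicate 2, with 3.343 CPM against 113 CPM. After nuclei with markers of other cell types were left out, ANGPT2 (-2.14), PDK4 (-1.88) and ENPP1 (-1.83) were still called lower, whereas CD44 (-0.15, adjusted p = 0.942), ADAMTS1 (-0.36, adjusted p = 0.706) and KIRREL3 (-0.67, adjusted p = 0.488) were not, and among the genes that rose SLC27A2 (0.59, adjusted p = 0.0775) was not.

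By list, INHBA (log2 0.67, SE 0.10), FST, INHBB, INHA and SMAD2 rose and 4 of 28 fell (TGFBR2, BMP6, SMAD7, SMAD3; median log2 0.00 beside -0.02 over all genes). Without nuclei that carried markers of other cell types, INHBA (0.46, adjusted p = 0.0699), INHBB (0.36, adjusted p = 0.0786), INHA (0.24, adjusted p = 0.278), SMAD2, SMAD3 and TGFBR2 (-0.73, adjusted p = 0.33) lost their call, and FST alone of the 5 that rose kept it. SCARB1, the receptor for high density lipoprotein, and FDXR were the 2 of 12 steroid synthesis genes called (median log2 0.23), and both lost the call in that setting (0.38, adjusted p = 0.152, and 0.27, adjusted p = 0.327). LRP8, SOAT1 and SCARB1 rose and ABCA1 fell among 31 cholesterol genes (median log2 0.22). CYP11A1 stood at 55.03, 115 and 185 CPM against 48.95, 102 and 112 CPM and did not pass the test (adjusted p = 0.0682). Of 27 transcription factors ESR2, GATA6, FOXO1 and PBX3 rose and 7 fell (EMX2, RUNX2, WT1, NR4A3, SOX4, ARID5B, TEAD1; median log2 0.05). Of 29 ovulatory genes EREG, VCAN and TNFAIP6 rose and 9 fell, ADAMTS1 and CD44 first (median log2 -0.48). Of 32 guidance genes 7 rose and 10 fell (median log2 -0.34), of 16 IGF genes 2 rose (PAPPA, PIK3R1) and 5 fell (median log2 -0.25), and of 33 cAMP genes 2 rose (PDE8A, PRKAR2B) and 4 fell (median log2 -0.07). GADD45B rose and GADD45A, BCL2 and BCL2L11 fell among 27 apoptosis genes (median log2 -0.17), and SERPINE2, a chosen marker, rose and 6 fell among 21 proteases (median log2 -0.51). VCAN rose and 3 fell among 25 contact and matrix genes (median log2 -0.24), 3 of 22 glycolysis and hypoxia genes fell (median log2 -0.14), CCND2 rose and CCND3 fell among 20 replication genes (median log2 -0.04), and 6 of 13 mitochondrially encoded genes fell (median log2 -0.34). Of the study's 5 mural genes, chosen on these samples, 4 rose, and of its 5 cumulus genes IGFBP2 fell. Without nuclei that carried markers of other cell types the lists kept few of these calls, among them 2 of 4 higher and 3 of 7 lower transcription factors, 1 of 3 higher and 4 of 9 lower ovulatory genes, 1 of 7 higher guidance genes and 4 of 9 lower ones tested (ROBO4 was not), and 2 of 6 mitochondrially encoded genes. They also kept 0 of 2 higher and 1 of 4 lower cAMP genes, and 1 of 2 higher and 1 of 5 lower IGF genes. Kept too were 2 of 3 higher and 0 of 1 lower cholesterol genes, 3 of 6 lower proteases and 2 of 3 lower contact and matrix genes. The other lists kept 0 of 1 higher and 1 of 3 lower apoptosis genes and 1 of 3 lower glycolysis and hypoxia genes. Of the study's genes, 1 of 4 mural (SERPINE2) and 0 of 1 cumulus genes kept their call. The mitochondrially encoded genes that lost it were COX2 (-0.48, adjusted p = 0.0739, from -0.45), ND2 (-0.41, adjusted p = 0.0529, from -0.34), CYTB (-0.39, adjusted p = 0.0629, from -0.32) and COX3 (-0.37, adjusted p = 0.0775).

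**Figure D4:**
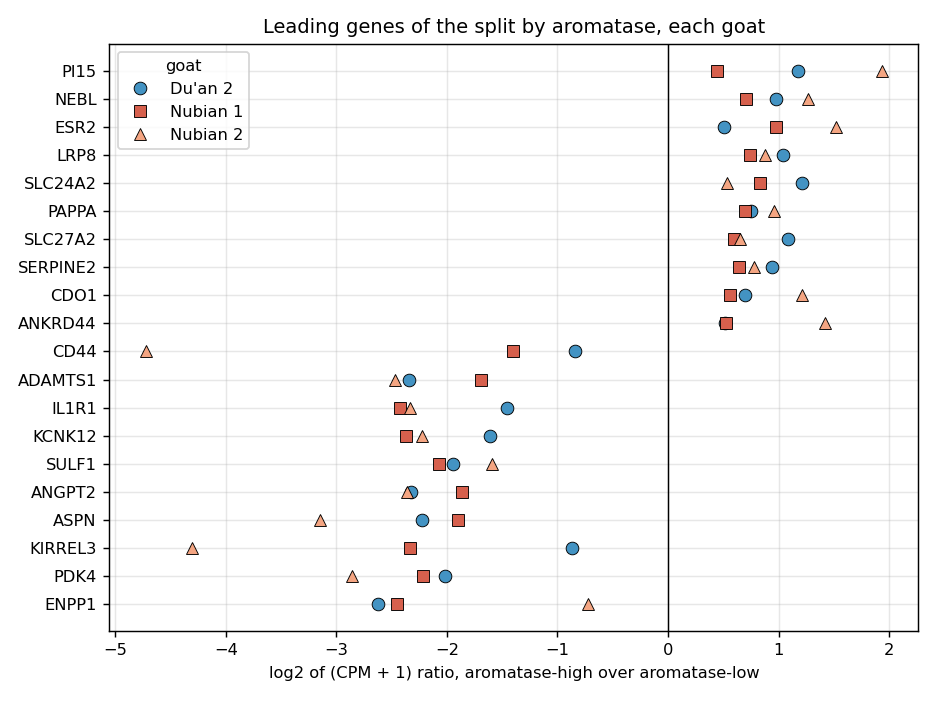
Ratio of the level in aromatase-high over aromatase-low mural nuclei, as log2 of (CPM + 1), for the 10 leading genes in each direction, with 1 symbol per goat. All 3 goats lie on the same side of 0 for each gene, and CD44 and KIRREL3 spread widely, with Nubian replicate 2 farthest from 0.

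The theca is the other ovarian cell type with LHCGR before ovulation. The theca gate (2 or more CYP17A1 UMIs, none of CYP19A1 or FSHR) held 6, 6 and 8 nuclei, under the 20 needed for a sum, so no test was made and exact Poisson intervals cover counting error only. LHCGR stood at 5557 CPM (95% interval 4979 to 6183), 2786 CPM (2283 to 3366) and 1555 CPM (1287 to 1862) there, beside 2649, 1578 and 1940 CPM in the mural nuclei. The rule asked every mural nucleus for an LHCGR UMI and the theca gate did not, so the mural level is set in part by the rule and nothing is read from the order of these values. INHBA stood at 32.98, 208 and 39.54 CPM in the theca gate, and CYP11A1 at 264, 286 and 303 CPM beside 52.99, 109 and 151 CPM in the mural nuclei.

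Most genes were at like levels in the members of the 3 goats. Of 5460 genes with a mean of 20 CPM or more, 4783 (87.6%) lay within a factor of 2 across all 3. Nubian replicate 2 stood apart most, with 39 genes at 4 or more times the level of both other goats, against 7 in Du'an replicate 2 and 5 in Nubian replicate 1. Its leading genes were LIX1, GRK5, GRAMD1B, PAPPA, COBLL1, ABHD6, DPYS, HK2, TC2N and PDE10A. TC2N stood at 164, 403 and 3517 CPM, with a UMI in 91.75% of the members of Nubian replicate 2 against 48.78% and 58.24%. GRK5, a kinase that turns off G protein-coupled receptors, stood at 42.17, 63.44 and 1145 CPM, with a UMI in 77.66% against 20% and 20.04%. HK2, a hexokinase, stood at 8.597, 5.280 and 77.93 CPM. In the aromatase-free nuclei of the same goats TC2N was at 68.99, 111 and 139 CPM and GRK5 at 62.35, 81.43 and 42.84 CPM, so the excess was not seen in all granulosa nuclei of that library. These 291 members are the smallest sum of the 3, and whether they come from few follicles cannot be told apart from a trait of the goat.

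Du'an replicate 2 led in TMEM150C (2669, 158 and 125 CPM, with a UMI in 96.73%, 32.27% and 28.52% of members) and in EHHADH, a peroxisomal enzyme of fatty acid oxidation (686, 74.04 and 137 CPM). EHHADH was also high in the aromatase-free nuclei of that goat (510, 96.40 and 95.71 CPM). Nubian replicate 1 led in FAM19A2 (473, 3301 and 147 CPM) and in ACTA2, COL1A1 and COL3A1, genes of smooth muscle and fibroblasts. COL3A1 stood at 18.53, 74.44 and 13.84 CPM in the members and at 44.40, 139 and 18.24 CPM in the aromatase-free nuclei, so Nubian replicate 1 was highest in both gates. The part of RNA from other cells in these collagen values was not tested.

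Between breeds the test had Nubian replicates 1 and 2 against Du'an replicate 2 alone, whose sum was assumed to vary like the others. Of 14329 genes edgeR called 2 higher in Nubian (0.014%) and 0 lower (0%), with 566 at an unadjusted p under 0.05, and DESeq2 called 15 higher and 10 lower. The 2 genes were ATP6 (0.2964 CPM against 1526 and 1385 CPM) and COX2 (0.4447 CPM against 826 and 714 CPM), both encoded in the mitochondrion and part of its respiratory machinery. The low level was found in every gate of Du'an replicate 2 examined and not in Du'an replicate 1. Over all nuclei, ATP6 stood at 1.965 CPM and COX2 at 2.097 CPM in Du'an replicate 2, but at 1536 and 820.6 CPM in Du'an replicate 1. In the T cell nuclei of Du'an replicate 2, where mitochondrial RNA made up 3.903% of UMIs, ATP6 had 3 UMIs and COX2 5. The neighbours in function COX3 and ND4 were not low there, at 8965 and 2894 CPM over all nuclei of Du'an replicate 2 against 3125 and 1443 CPM in Du'an replicate 1. ATP8 was at 0 CPM in Du'an replicate 2, and the cause of these low counts was not tested.

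**Figure D5:**
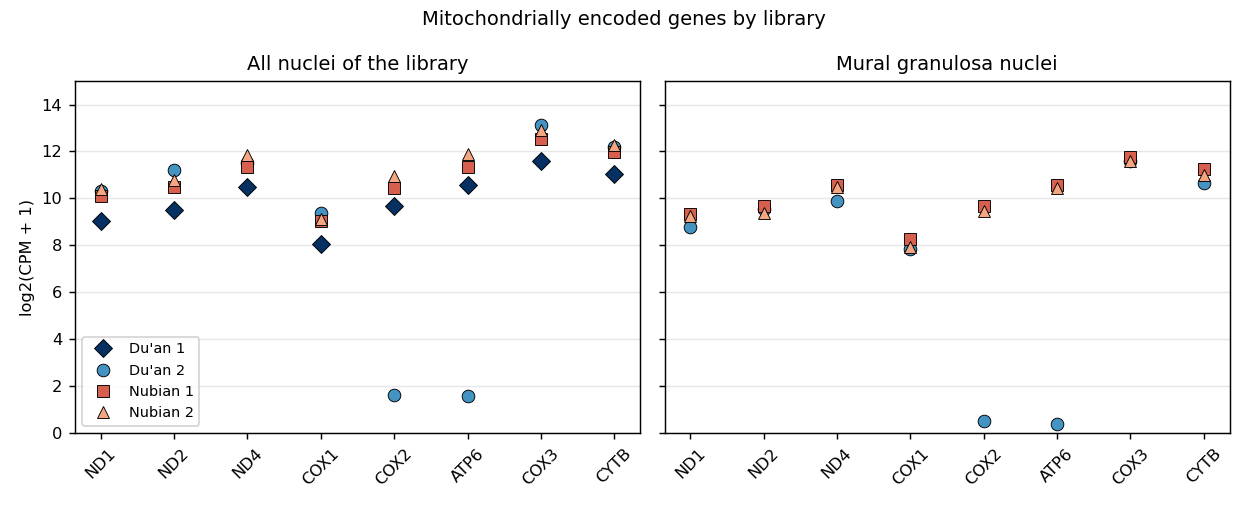
Levels of 8 mitochondrially encoded genes as log2(CPM + 1), over all nuclei of each library (left) and over the mural granulosa nuclei (right), with 1 symbol per goat. Du'an replicate 2 lies with the other libraries except for COX2 and ATP6, where it is near 0 in both panels, while Du'an replicate 1 is not.

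No gene of the lists other than ATP6 and COX2 was called between breeds by edgeR with its filter on low counts. GATA6 (408 against 935 and 1225 CPM; log2 1.46, SE 0.34, adjusted p = 0.976) and INHBB (186 against 383 and 387 CPM; log2 1.10, SE 0.28, adjusted p = 0.98) had the Du'an goat outside the range of the Nubian goats without passing the test. As a description, ROBO1 in the Du'an goat (679 CPM) was below both Nubian goats and SERPINE2 (4482 CPM) between them.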

How the data were processed

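The authors deposited, for each of 4 libraries, UMI counts per gene and nucleus for 28944 genes, made with Cell Ranger (version 5.0.0 in the study's notes, 3.1.0 in the matrix headers) and not normalized. The authors also deposited tables of their subtype and stage markers with fold changes and p-values, which were not used. CYP17A1 and CYP11A1 were matched by RefSeq synonyms (assembly ARS1.2), and 2 features were renamed so.

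Nuclei were chosen by the rule given above, and counts were summed per goat and gate of 20 or more nuclei. Sums were tested by edgeR 4.0.16 (R 4.3.3; quasi-likelihood, TMM, filter on low counts, Benjamini-Hochberg over all genes tested), with the goat as a block because both gates come from the same animal. DESeq2 1.42.0 was an alternative. SE is the log2 fold change divided by the root of F. On simulated counts, log2 changes of 1 and 2 were recovered in 39.2% and 94.9% (aromatase-free), 37.8% and 97.9% (progenitor-like) and 32.3% and 93.5% (aromatase split). In the same order, 6, 7 and 1 unchanged genes were called. The simulation gave every gene the same spread and all goats the same level, unlike the data. These percentages therefore do not tell what share of real changes was found. Members, lists and tests were chosen with earlier results of these data known. Named genes are those in the lists and the study's text, and up to 10 per direction by log2 fold change among called genes with 20 CPM or more in the higher gate that moved the same way in every goat (up to 5 between breeds). Other list genes given with values were chosen after their values were seen. Libraries shared 54 to 131 barcodes per pair, and 2 were members in both libraries. Some genes of the lists are counted but not reported here by name.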

Additional observations from a re-analysis of the deposited data

Results flagged for a closer look

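In 3 results the CPM of the Nubian goats moved one way and that of the Du'an goat (replicate 2) the other, without TMM scaling. With library totals the median log2 fold change of all genes was -0.29 against aromatase-free nuclei and -0.15 in the aromatase split. Values this near 0 can change sign with the scaling, so no opposite direction is read from them. The difference between the goats was not tested, since only 1 Du'an goat had enough members. CHST8, a sulfotransferase that acts on glycoprotein hormones, differed between mural and aromatase-free nuclei by 0.82 (log2) in the Nubian goats and by -0.03 in the Du'an goat. Between aromatase-high and aromatase-low mural nuclei CHST8 differed by 0.36 in the Nubian goats and by -0.16 in the Du'an goat. NR5A1 differed between aromatase-high and aromatase-low nuclei by -0.10 in the Nubian goats and by 0.18 in the Du'an goat. With TMM its fitted log2 fold change was 0.15 (SE 0.11), and it was not called.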

How the results depend on the processing

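Counts are given as genes higher and lower. Against aromatase-free nuclei (1290 and 1999), library totals gave 728 and 3225 and no replicate block 682 and 742, and leaving out each goat gave 433 to 1471 and 641 to 2081. Against progenitor-like nuclei (940 and 1543), the study's quality filter gave 622 and 1092, leaving out nuclei with markers of other cell types 577 and 981, and leaving out each goat 207 to 1729 and 363 to 2637. For the aromatase split (280 and 768), DESeq2 gave 187 and 410, library totals 118 and 1049, no filter on low counts 536 and 1294, no replicate block 0 and 0, a minimum of 3 CYP19A1 UMIs 170 and 506, the quality filter 178 and 541, leaving out nuclei with markers of other cell types 66 and 207, and leaving out each goat 80 to 626 and 187 to 1275. Between breeds (2 and 0), DESeq2 gave 15 and 10, no filter 162 and 150 and the quality filter 2 and 1. The breed difference in share (4.972 points) was -4.541 to 14.48 when each goat was left out, and turned without Du'an replicate 1 (-2.183) or Nubian replicate 1 (-4.541).

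Genes that turned were not called where they did so, except STAR against aromatase-free nuclei, which turned and was called with the quality filter (1.71) and without nuclei with markers of other cell types (2.38), and turned when a goat was left out (-0.54 to 0.62). The others were C1QC (0.17), NPC2 (0.13), TYROBP (0.23), ARRB1 (1.21) and CEBPB (1.02) against aromatase-free nuclei, and IGFBP2 (0.12) and PDE4B (1.20) against progenitor-like and IGF2 (0.32) in the aromatase split, all without nuclei with markers of other cell types. IGFBP2 (0.62), CEBPB (1.66), UNC5D (-0.53) and NFKB1 (-0.44) turned against progenitor-like nuclei, CEBPB (0.40) against aromatase-free nuclei, and NFKB1 between breeds (-0.01), with the quality filter. NFKB1 against progenitor-like nuclei also turned with library totals (-0.14), no replicate block (-0.10) and leaving out Du'an replicate 2 (-0.05) or Nubian replicate 2 (-0.07). In the aromatase split EDA turned with no replicate block (0.02) and without Du'an replicate 2 (0.21; leaving out each goat gave -0.41 to 0.21), and RERG without Du'an replicate 2 (0.09; range -0.31 to 0.09). FSHR in the aromatase split, near 0, turned with library totals (-0.13), the quality filter (-0.02) and without nuclei with markers of other cell types (-0.02). Leaving out a goat in turn also turned FSHR in that split (-0.18 to 0.19), HSD17B1 (-0.21 to 0.66) and PTGS2 (-0.95 to 0.17) against aromatase-free nuclei, and CYP11A1 (-1.14 to 0.17) against progenitor-like nuclei. The causes were not tested.

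Goats of the 2 breeds are different animals that share only a replicate number, so no paired analysis was made between breeds. Leaving out a goat there left no residual degree of freedom. The test against theca and its alternatives were not run, for want of 20 nuclei. The settings on depth of 3000 UMIs and on markers of other cell types were chosen after seeing the data. Thinning to 2000 UMIs (6.867 points) and counting over nuclei of 1000 or more UMIs (7.167 points) gave the breed difference in share the sign it had before. The p-values between gates rest on 3 goats.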
